A study of Drosophila melanogaster with 8 samples.

Results

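The small nucleolar RNA (snoRNA) and small Cajal body RNA (scaRNA) genes of *Drosophila melanogaster* were examined for binding of CDK9 at their own loci and at the genes that carry them. They were taken as all genes whose symbol in the dm6 annotation begins with snoRNA: or scaRNA:, which gave 274 of 18277 annotated genes. A host was any other gene that holds such a gene whole on the same strand. In all, 99 hosts held 251 of the 274 genes, 12 of which lay in 2 hosts, and 23 genes had no host. A snoRNA gene was counted as having a peak if a CDK9 peak came within 500 bp of the gene or of an annotated start of its host.

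CDK9 is the kinase of P-TEFb, which releases paused RNA polymerase II into elongation. The data are chromatin immunoprecipitation and sequencing (ChIP-seq) of endogenous CDK9 in Kc167 cells, a female hemocyte line derived from embryos. Cells were electroporated without RNA (mock, genotype control, 2 libraries) or with RNA against Argonaute2 (siAGO2, 2 libraries), and all were collected 3 days later. Each library has 1 list of peaks, and the labels do not say whether the replicates were separate cultures, so that the spread between them may be technical. The lists measure neither AGO2 nor any RNA. They also cannot tell a change in the share of cells with CDK9 at a site from a change in the amount per cell.

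The lists held 3103 and 3804 peaks in mock replicates 1 and 2, and 1707 and 2295 peaks in siAGO2 replicates 1 and 2. The genome background, taken from each list as the lowest local background of any peak in reads, was 2.29 and 1.21 in the mock libraries. It was 0.814 and 0.864 in the siAGO2 libraries. Both siAGO2 libraries thus had the lower background. This value is only a rough sign of depth, since it also depends on settings of the peak calls that are not known. Depth itself was not measured, and depth and treatment cannot be told apart in these lists. The lowest summit that was called had 10, 7, 5 and 6 reads in the same order of libraries. Among 6 hemocyte genes, *srp* and *ush*, which encode GATA-type and FOG-type regulators of blood cells, had a start peak in all 4 libraries, *Pxn* had one in mock replicate 2 only, and *Hml*, *NimC1* and *He* had none.

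SnoRNAs guide the chemical modification of other RNAs by base pairing. Box C/D snoRNAs direct 2′-O-methylation by fibrillarin, box H/ACA snoRNAs direct pseudouridylation by dyskerin, and scaRNAs do the same for spliceosomal RNAs in Cajal bodies. Most animal snoRNAs have no promoter of their own. They are cut out of introns that have been spliced from a host transcript, so that Pol II must initiate at the host start and elongate into the intron before a snoRNA can be made. Host genes are often ribosomal protein or translation genes. In flies a set of non-coding hosts, the *Uhg* (U snoRNA host) genes, appears to serve mainly to carry snoRNAs.

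By their symbols, 110 of the 274 genes were box C/D, 115 were box H/ACA, 17 were scaRNA genes, and 32 had symbols that give no class. Of the 251 genes with a host, 228 lay in an intron, 17 in an exon, 4 partly in an exon, and 2 in an exon of one host and an intron of the other. They were 46 to 511 bp long, with a median of 134 bp. The boxes of each class were found in the sequence of most genes named for it. The letters CTGA of box D were found in 107 of 110 box C/D genes and, being short, also in 49 of 115 box H/ACA genes. TGATGA, the core of box C, was found in 83 and 4. The letters ACA stood 3 bases before the end in 106 of 115 box H/ACA genes and in 2 of 110 box C/D genes.

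The following 4 genes are shown because the results below turn on them, 3 with a CDK9 peak close by in at least 1 library and 1 with none. They were read from the RefSeq dm6 assembly, with TGATGA and CTGA, or the terminal ACA, in capitals. The first lies in *RpL3* and is the only one of the 274 genes that a CDK9 peak overlapped, the second lies in *RpS20* and had a peak close by in all 4 libraries, the third is 1 of 14 genes in *RpS5a*, and the fourth encodes U3, which has its own promoter, no host and no peak.
snoRNA:Me18S-C1096 (chr3R:11222405-11222489, + strand): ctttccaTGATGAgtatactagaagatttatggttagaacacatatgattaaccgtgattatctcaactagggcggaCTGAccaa
snoRNA:Psi18S-1295 (chr3R:20822610-20822749, + strand): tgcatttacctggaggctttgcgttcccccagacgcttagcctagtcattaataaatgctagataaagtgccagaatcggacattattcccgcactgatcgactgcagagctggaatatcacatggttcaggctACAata
snoRNA:Psi28S-2876 (chrX:17144831-17144970, − strand): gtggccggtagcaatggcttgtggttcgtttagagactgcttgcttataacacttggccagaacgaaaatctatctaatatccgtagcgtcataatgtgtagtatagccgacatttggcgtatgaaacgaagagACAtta
snoRNA:U3:9B (chrX:10348125-10348337, + strand): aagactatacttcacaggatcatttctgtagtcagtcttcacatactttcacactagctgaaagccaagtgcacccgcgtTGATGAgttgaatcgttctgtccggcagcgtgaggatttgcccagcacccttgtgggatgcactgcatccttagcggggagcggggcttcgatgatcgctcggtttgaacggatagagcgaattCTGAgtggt

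Larger shares of hosts than of all genes had CDK9 peaks at their starts, and most of the hosts with a peak had it in only some of the lists. A peak lay within 500 bp of a start in 26 of 99 hosts in mock replicate 1, in 46 in mock replicate 2, in 21 in siAGO2 replicate 1 and in 29 in siAGO2 replicate 2. In percent these were 26.3, 46.5, 21.2 and 29.3, beside 11.3, 16.8, 7.77 and 10.3 of all 18277 genes. In all 4 libraries a peak was present at 14 hosts (14.1%, against 5.03% of all genes), in any library at 51 (51.5%, against 20.7%), and in none at 48. Mock replicate 2, which has the longest list, was the only library with a peak at 12 of these hosts.

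Hosts have more annotated starts than most genes, which gives more windows in which a peak can fall. Among genes with a single start, 21 of 50 hosts (42.0%) had a peak in any library and 3 (6%) in all 4, beside 16.0% and 3.01% of all 14441 such genes. Among genes with 2 or more starts the shares were 61.2% of 49 hosts and 38.2% of 3836 genes in any library, and 22.4% and 12.6% in all 4. The shares of hosts were the higher ones in both classes. Other genes also start close by, since 50 of 99 hosts had the start of another gene within 500 bp of their own. A further rule, added after the data were seen, took only the highest start peak of each gene by −log10 q. It was counted if no other gene started closer to its summit, so that a lower peak at the gene's own start could be missed. By this rule 19, 37, 19 and 24 hosts had one in the same order of libraries (19.2%, 37.4%, 19.2% and 24.2%), and 10 hosts had one in all 4 (10.1%). Under the same rule these were 8.57%, 12.4%, 5.9% and 7.73% of all genes, and 3.64% in all 4.

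**Figure D1:**
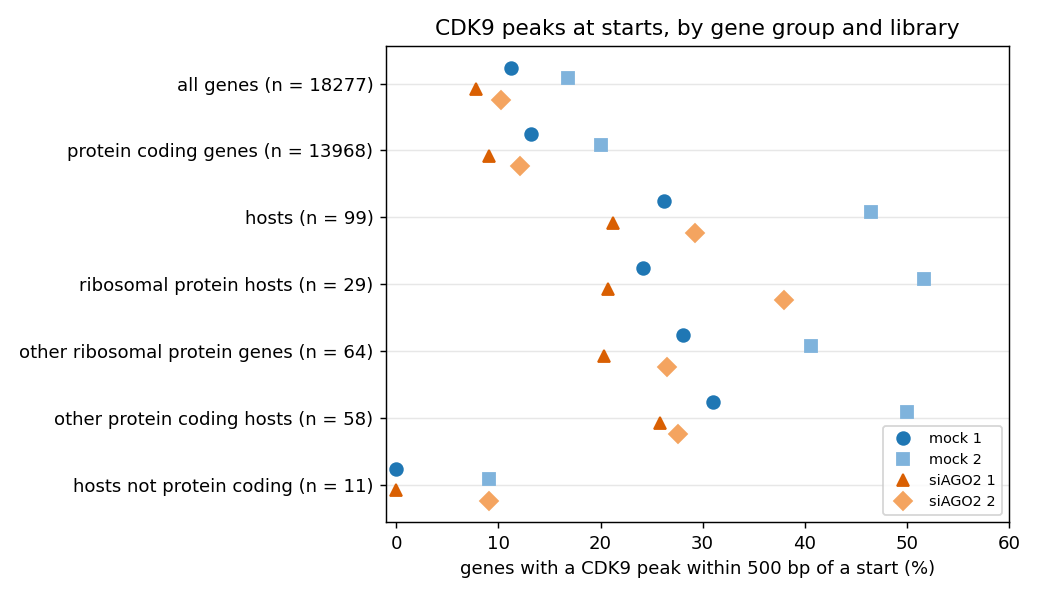
Share of genes with a CDK9 peak within 500 bp of a start (horizontal axis, percent) for all genes, hosts and groups of hosts, with 1 point for each of the 4 libraries. Ribosomal protein hosts and other protein coding hosts lay between 20.7% and 51.7% in every library, whereas hosts that are not protein coding had at most 1 of 11 (9.09%) in any library.

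The hosts were grouped by what they encode. Of the 29 hosts that encode cytoplasmic ribosomal proteins, 7, 15, 6 and 11 had a start peak in the same order of libraries, and 4 had one in all 4. Of the 64 ribosomal protein genes that hold no snoRNA, 18, 26, 13 and 17 had one (28.1%, 40.6%, 20.3% and 26.6%) and 8 had one in all 4 (12.5%, against 13.8% of the hosts). The shares of both sets lay in a like range, and which was higher differed between libraries. Of the 58 other protein coding hosts, 18, 29, 15 and 16 had a start peak and 10 had one in all 4. The single host with a translation factor symbol (eIF, eEF or eRF) was *eEF1alpha1*, which delivers aminoacyl-tRNA to the ribosome. It had peaks of 5.53-fold and 5.44-fold enrichment in the mock libraries and 4.33-fold in siAGO2 replicate 2. All lay closest to the start of *ERp60*.

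Hosts that are not protein coding carried almost no called CDK9. Of 11 such genes, 1 had a start peak in mock replicate 2 and 1 in siAGO2 replicate 2. The first was the pseudogene *CR33222*, whose start lies within 500 bp of that of *RpS6*, and the second was *Uhg7*, whose peak lay closest to the start of *RpL23A*. The other 6 *Uhg* genes (*Uhg1*, *Uhg2*, *Uhg3*, *Uhg4*, *Uhg5* and *Uhg8*) and *lncRNA:CR31647*, *lncRNA:CR42491* and *lncRNA:CR45184* had none in any library. Together the 7 *Uhg* genes hold 48 snoRNA genes, up to 16 in *Uhg1*. Of all 3289 genes of the same annotated class (ncRNA), 5.62%, 7.69%, 4.44% and 5.05% had a start peak, and 7 genes are too few to set the *Uhg* genes apart from that class. All 7 *Uhg* start windows were unique to 50-base reads, the length sequenced. CDK9 below the lowest summit called, 5 to 10 reads depending on the library, was not detectable at these starts.

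The stretch around a start is shown for 4 host starts that have a peak within 500 bp in at least 3 libraries and the TCT initiator, a pyrimidine-rich start site typical of ribosomal protein genes, and for 4 *Uhg* genes without it. Each runs from 20 bases before an annotated start to 9 after it, read from the RefSeq dm6 assembly, and capitals mark CTTTT or CTTTC with its C within 5 bases of the start. The ribosomal protein starts were chosen for having both a peak and the element, and the *Uhg* genes by their name. The sets therefore only show what the element looks like and cannot relate it to CDK9. Of the *Uhg* genes shown, *Uhg7* had a peak in 1 library and the others had none. *Uhg1*, *Uhg4* and *Uhg5*, which have the element and no start peak, are not shown.
RpS5a (chrX:17148255-17148284, − strand): tgctgcacactgccgtaacatgttCTTTTt
RpL3 (chr3R:11221874-11221903, + strand): cgagacggaagtcggaatcgtttCTTTTcc
RpS7 (chr3R:30208933-30208962, − strand): ctacgtcgtggctcgacttcCTTTCctgtc
RpL30 (chr2L:19009228-19009257, − strand): tacccatttccgcctgttcttcctCTTTCt
Uhg2 (chr2L:9894994-9895023, − strand): gtgcgatgacgaaactcgttcattttattt
Uhg3 (chr2L:20647513-20647542, + strand): gaagcagtcacagtttaatgccagccgaaa
Uhg7 (chr3L:1667298-1667327, − strand): acgtgtggaatgggcatcgcgttctacatt
Uhg8 (chr3L:20453273-20453302, + strand): ccgaatttcgtttggtaaaggtcgtcagcg

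The TCT initiator was more common among hosts than among all genes. It was found in 19 of 29 ribosomal protein hosts (65.5%), in 7 of 58 other protein coding hosts (12.1%), in 3 of 7 *Uhg* genes and in 29.3% of all hosts, beside 5.33% of all genes. Counted per start, it was present at 3 of 21 host starts with a peak in all 4 libraries (14.3%), at 15 of 61 with a peak in 1 to 3 (24.6%) and at 17 of 108 with no peak (15.7%). Over all 24111 starts the shares were 3.93% of those with a peak in all 4 libraries and 4.15% of those with none.

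The letters GAGAG showed no steady order with the number of libraries when counted per start, but did when counted per host. By host, over all its starts, they were found in 11 of 14 with a peak in all 4 libraries (78.6%). They were found in 15 of 37 with a peak in 1 to 3 (40.5%) and in 16 of 48 with none (33.3%), beside 34.6% of all genes. A host with more starts has more windows in which the letters can fall. Per start, on either strand from 250 bases before to 50 after it, they were found at 11 of 21 host starts with a peak in all 4 libraries (52.4%). The counts were 19 of 61 with a peak in 1 to 3 (31.1%) and 39 of 108 with none (36.1%). Over all starts the shares were 54.2% of those with a peak in all 4 libraries and 30.9% of those with none. TATCGATA, the DNA replication-related element (DRE) common at housekeeping promoters, was found in 23.2% of hosts and 8.12% of all genes. By start it was present at 5 of 21 with a peak in all 4 libraries (23.8%), at 16.4% of those with a peak in 1 to 3 and at 14.8% of those with none, beside 11.5% and 5.05% of all starts with a peak in all 4 libraries and with none. In the same order of host starts, TATAAA was found at 33.3%, 37.7% and 40.7%. Over all starts it was found at 28.8% of those with a peak in all 4 libraries and 42.6% of those with none. The Motif 1 core GGTCACACT was found at 0 of 21, at 11 of 61 (18.0%) and at 3 of 108 (2.78%). Over all starts its shares were 6.03% of those with a peak in all 4 libraries and 3.25% of those with none. A match is a description of these letters, and binding of a factor was not measured.

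The hosts with CDK9 in all 4 libraries were *lola*, *tou*, *mask*, *Usp10*, *skd*, *AdamTS-A*, *RpS5a*, *Dek*, *RpS7*, *Nop60B*, *hts*, *RpS20*, *Msp300* and *RpL3*. The peak at *lola*, which encodes a BTB zinc finger transcription factor and holds 4 snoRNA genes named after it, was the highest of any host. It had 88 and 95 reads at its summit in the mock libraries (95% exact Poisson intervals 70.6 to 108 and 76.9 to 116) and 63 and 60 in the siAGO2 libraries (48.4 to 80.6 and 45.8 to 77.2), which cover counting error only. In fold enrichment over the local background these were 13.4 and 17.4 in mock and 14.2 and 19.8 in siAGO2. It ranked at or above the 98.7th percentile of its list by −log10 q in each library. The folds of mock and siAGO2 overlapped, whereas summit reads and percentiles were higher in both mock libraries (99.5 and 99.4 against 98.7 and 99.0), which also had the higher background.

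The strongest hosts after *lola* were regulators that hold 1 or 2 snoRNA or scaRNA genes each. *tou* encodes a chromatin protein, and its peaks had 7.21-fold and 10.7-fold enrichment in mock and 12.7-fold and 6.78-fold after siAGO2. *Usp10*, a deubiquitinase gene with 2 snoRNA genes, had 4.61 and 12.0 in mock and 10.2 and 8.75 in siAGO2. *skd* encodes the Med13 subunit of the Mediator kinase module, and its values were 4.71 and 7.37 in mock and 7.53 and 10.6 in siAGO2, so that both siAGO2 values lay above both mock values. In all of these the lowest fold or the lowest but one was that of mock replicate 1, the library with the highest background. For *mask*, with 7.99 and 10.3 in mock and 6.98 and 9.69 in siAGO2, the start closest to the summit was that of *Spase22-23* in all 4 libraries.

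The 4 ribosomal protein hosts in this set had folds between 2.96 and 7.33. *RpS5a*, with 14 snoRNA genes, reached 3.67-fold and 7.33-fold in mock and 5.84-fold and 7.13-fold after siAGO2, from 30, 30, 13 and 21 reads. *RpS7*, with 7, reached 4.23-fold and 6.98-fold in mock and 6.01-fold and 7.26-fold after siAGO2. *RpS20* had 3.95 and 4.74 in mock and 5.07 and 5.26 in siAGO2, and *RpL3* had 2.96 and 3.82 in mock and 3.70 and 4.09 in siAGO2. The folds of *RpS20* in mock replicate 1 and of *RpL3* in mock replicate 2 are those of the highest start peak. These summits lay closer to the start of a neighbour (*CG17271* and *CG6693*). Both hosts also had a lower peak within 500 bp of their own start in that library. *Dek*, which encodes a chromatin protein, *hts*, the adducin gene, and *Msp300*, the nesprin gene, had folds from 4.39 at *hts* to 8.93 at *Dek*, both in mock. Start peaks of ribosomal protein hosts reached no higher than the 85.8th percentile of any list, whereas those of other protein coding hosts, a larger group, reached the 99.5th. In the same order of libraries the median percentiles were 62.7, 55.0, 28 and 52.5 in ribosomal protein hosts. In other protein coding hosts they were 62.6, 57.0, 48.1 and 53.5. Ribosomal protein genes without a snoRNA gene reached the 94.7th percentile.

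Hosts rich in snoRNA genes had start peaks in somewhat larger shares than the rest, a difference that was not tested. Of 21 hosts with 4 or more snoRNA genes, 7, 11, 7 and 10 had a start peak and 5 had one in all 4 libraries (23.8%), beside 9 of the other 78 (11.5%). *Arpc2*, which encodes a subunit of the Arp2/3 actin-nucleating complex and holds 17 snoRNA genes, the most of any host, had no peak in mock replicate 1 and folds of 4.72, 3.98 and 3.95 in the other 3 libraries. The underlying summits were 20 reads in mock replicate 2 (12.2 to 30.9) and 9 and 10 in the siAGO2 libraries (4.12 to 17.1 and 4.80 to 18.4). *kra*, with 8, also had no peak in mock replicate 1, and its folds were 2.86 in mock replicate 2 and 4.36 and 3.39 in siAGO2. *Sf3b3*, a gene of the U2 snRNP with 9 snoRNA genes, had peaks in both mock libraries only, and *Hrb98DE*, an hnRNP gene with 7, in mock replicate 2 only. *dom*, the gene of a chromatin remodelling ATPase with 15 snoRNA genes, had no start peak in any library, and neither had *RpL17*, *RpL28*, *RpS16*, *lncRNA:CR45184*, *Uhg1*, *Uhg2*, *Uhg4* or *Uhg5*.

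**Figure D2:**
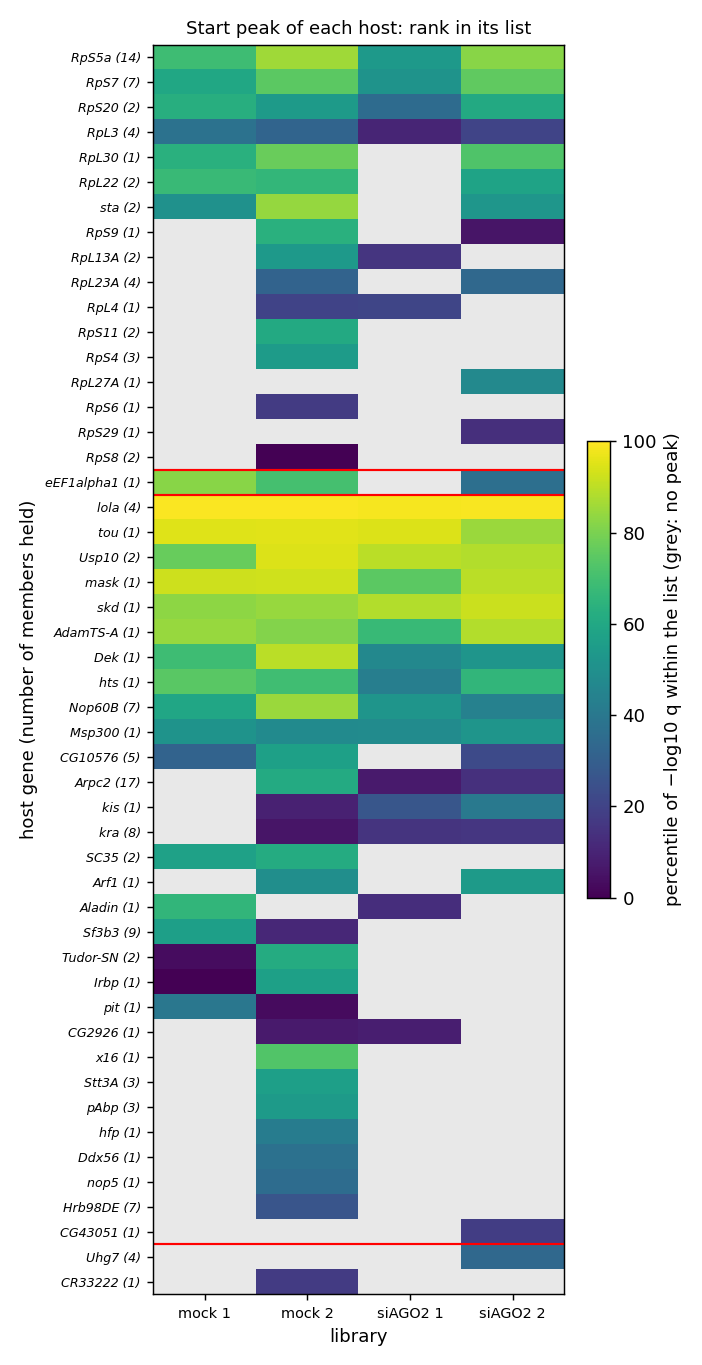
Percentile of the highest start peak of each host by −log10 q within the list of its library (colour, 0 to 100, grey where no peak was called), for 50 of the 51 hosts with a peak in any library, the number of snoRNA or scaRNA genes in brackets and red lines between the host groups. *lola* lay above the 98th percentile in all 4 libraries, whereas no ribosomal protein host (top block) passed the 85.8th in any.

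Summits of ribosomal protein hosts lay mostly downstream of the start, and this difference from other hosts was not tested. Each host was given the mean summit position of its highest start peak, over the libraries in which its own start was the closest. That mean lay downstream of the start in 15 of 17 ribosomal protein hosts (88.2%) and in 14 of 26 other protein coding hosts (53.8%), beside 66.4% of all genes. The medians of the 2 host groups were nearly equal, at 97.0 and 96.0 bp. Where at least 2 libraries gave a value, 10 of 11 ribosomal protein hosts (median 111 bp downstream) and 6 of 17 other protein coding hosts (median −26.0 bp, upstream) were downstream. Ribosomal protein genes without a snoRNA gene gave 10 of 13, and all genes 971 of 1657 (58.6%). The downstream position was thus shared with ribosomal protein genes that hold no snoRNA gene. The exceptions among ribosomal protein hosts were *RpS5a* (−106 bp over 4 libraries) and *RpS6* (−59.0 bp in 1). Among the others, the 8 hosts whose own start was the closest in all 4 libraries had their mean upstream, from −13.8 bp at *hts* to −339 bp at *Msp300*. A mean can mix different starts of a host. The summit of *hts* lay 33 bp downstream of a start in mock replicate 2 and siAGO2 replicate 1. That of *Dek* lay 110 bp downstream in mock replicate 1.

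**Figure D3:**
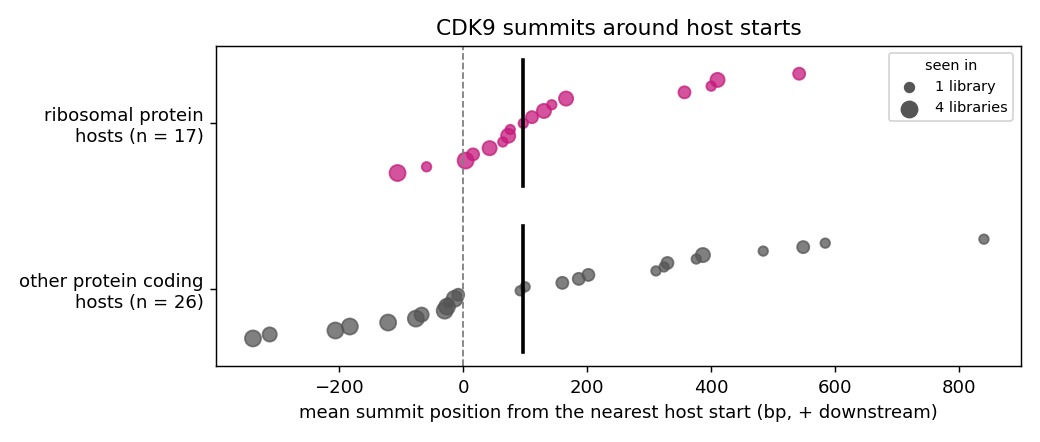
Mean position of the CDK9 summit from the nearest start of the host (horizontal axis, bp, positive downstream) for 17 ribosomal protein hosts and 26 other protein coding hosts, with larger points for more libraries and black bars at the medians (97.0 and 96.0 bp). Among the other protein coding hosts, those with points of the largest size lie upstream of the start, while ribosomal protein hosts lie mostly downstream.

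At the snoRNA and scaRNA genes themselves CDK9 was rare. A peak lay within 500 bp of 16 of 274 genes in each mock library (5.84%) and of 9 and 11 in the siAGO2 libraries (3.28% and 4.01%). Of all 2822 genes no longer than the longest of them, 4.75%, 6.02%, 3.12% and 3.72% had such a peak, so that the snoRNA and scaRNA genes were near this background. In all 4 libraries 3 genes had one (1.09%, against 1.88%), and in any library 33 had one. The 3 were snoRNA:Me18S-C1096, 511 bp from the start of *RpL3*, and snoRNA:Psi18S-1295 and snoRNA:Psi28S-2562, at 429 and 745 bp from that of *RpS20*. Only snoRNA:Me18S-C1096 was itself overlapped, in mock replicate 1 and siAGO2 replicate 2, with the summit 116 and 113 bp before the gene and closest to the *RpL3* start. These peaks had 25, 14, 12 and 11 reads at the summit and stood below the 38th percentile of every list.

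Most peaks near snoRNA genes lay at genes within 1000 bp of a host start, except in siAGO2 replicate 1. The window of 500 bp around a gene close to a start can take in that start. Within 500 bp of a host start, 4, 6, 1 and 6 of 35 genes had a peak, and between 500 and 1000 bp 8, 8, 3 and 5 of 51. Between 1000 and 1500 bp 2, 1, 0 and 0 of 42 had one. Beyond 1500 bp, where 123 genes lie, the counts were 2, 1, 5 and 0, and no gene had a peak in more than 1 library. All 5 genes in siAGO2 replicate 1 belonged to the array inside *RpS5a* (snoRNA:Psi28S-1192a, snoRNA:Psi28S-2876, snoRNA:Psi18S-1854c, snoRNA:Psi28S-1135f and snoRNA:Psi18S-1854b) and shared 1 peak of 4.27-fold and 14 reads, 2071 bp from the nearest start of any gene. No peak was called there in the other 3 libraries. Part of this array is repeated, since 48.0% of the 50-base words of snoRNA:Psi28S-1135e and snoRNA:Psi28S-1135f occur once in the genome, which lowers the reads that pass a mapping quality filter.

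**Figure D4:**
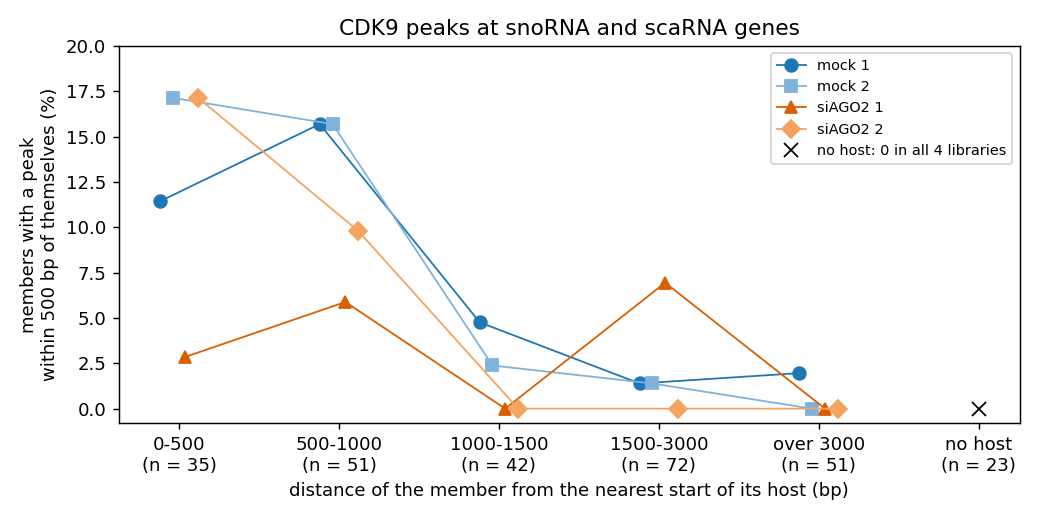
Share of snoRNA and scaRNA genes with a CDK9 peak within 500 bp of themselves (vertical axis, percent) by distance from the nearest start of the host (horizontal axis, bp), with 1 line per library and genes without a host at the right. Shares of up to 17.1% lay within 1000 bp of host starts, and the value of siAGO2 replicate 1 at 1500 to 3000 bp (6.94%) is the single peak in *RpS5a*.

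None of the 23 genes without a host had a CDK9 peak within 500 bp in any library. These include the 3 U3 genes, which are transcribed from their own promoters and guide cleavage of the ribosomal RNA precursor rather than its modification. Of the 50-base words of snoRNA:U3:9B, 69.5% were unique, but none of those of snoRNA:U3:54Aa and snoRNA:U3:54Ab, so that reads within those copies would be removed. About 63% of their windows with 500 bp on each side were unique (63.4% and 63.1%). A count of 0 of 23 says that no summit passed the threshold of a list and gives no limit on lower occupancy.

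With host starts included, 78 and 134 of 274 snoRNA and scaRNA genes had a peak in the mock libraries (28.5% and 48.9%) and 78 and 93 in the siAGO2 libraries (28.5% and 33.9%). In all 4 libraries 47 had one (17.2%), and in any library 139. Without mock replicate 1, 73 had one in all of the other 3 libraries. Of the 251 with a host these were 31.1%, 53.4%, 31.1% and 37.1%, and 18.7% in all 4. For all 2155 genes held by another gene on the same strand, the same rule gave 27.1%, 34.9%, 22.8% and 26.9%, and 16.7% in all 4, so that the excess was largest in mock replicate 2 and small in the count over all 4 libraries. Genes of 1 host share its peak and are not independent.

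The classes differed along with their hosts. Of 115 box H/ACA genes, 39, 78, 54 and 60 had a peak by this rule, and of 110 box C/D genes 20, 34, 11 and 19. By host, 12, 20, 11 and 13 of the 31 hosts of box H/ACA genes had a start peak and 8 had one in all 4 libraries, beside 7, 15, 3 and 10 of the 40 hosts of box C/D genes and 2 in all 4. *Arpc2* and *RpS5a* alone hold 31 box H/ACA genes, most of which are copies of a few guides, and the *Uhg* genes hold mainly box C/D genes. The difference between the classes was not tested.

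Of the 17 scaRNA genes, 4, 6, 3 and 2 had a peak by this rule, all through or near 6 hosts. scaRNA:PsiU6-40 in *skd* and scaRNA:MeU2-G25 in *mask* had it in all 4 libraries, although they lie 19684 and 2096 bp from the nearest start of the host. scaRNA:MeU5-G38 in *pit* and scaRNA:MeU2-48 in *hfp* had it in both mock libraries only, scaRNA:MeU4:25F-C137 in *CG2926* in mock replicate 2 and siAGO2 replicate 1, and scaRNA:MeU2-C28 in *Stt3A* in mock replicate 2. The other 11, among them scaRNA:PsiU2-55 in *Prp8* and scaRNA:PsiU5-44 in *tra2*, had none.

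The study asked whether depletion of AGO2 alters CDK9 on chromatin. Fewer host starts were called after siAGO2, 25 ± 5.66 of 99 (SD, n = 2) against 36 ± 14.1 in mock, a ratio of 0.694. The groups overlapped, as siAGO2 replicate 2 (29 hosts) lay above mock replicate 1 (26), and an exact permutation test, two-sided, gave p = 0.667, where 2 against 2 libraries cannot go below 0.3333. Over all genes the same ratio was 0.642. With the top 1707 peaks of each list, the length of the shortest, the counts were 21, 24, 21 and 22 and the ratio 0.956. By snoRNA or scaRNA gene the means were 85.5 ± 10.6 after siAGO2 and 106 ± 39.6 in mock (ratio 0.807, exact permutation p = 1), and without mock replicate 2 the ratio was 1.096, that is, turned in direction.

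Of 99 hosts, 0 had start peaks in both siAGO2 libraries while lacking them in mock, and 6 had the reverse. Among them were *Sf3b3*, *SC35* (an SR splicing factor), *pit* (a DEAD-box RNA helicase), *Tudor-SN* (a Tudor domain nuclease) and *Irbp* (the Ku70 DNA repair protein). Of all 18277 genes, 334 had a start peak in both mock libraries only and 18 in both siAGO2 libraries only, so that the same direction held outside the hosts. The share with peaks in both mock libraries only was larger among hosts than among all genes. So was the share with a peak in any library (51.5% against 20.7%). Among those with a peak in any library, the pattern was seen in 6 of 51 hosts and 334 of 3783 genes. These differences were not tested. With so few genes of the siAGO2 kind, 0 of 99 hosts says little. The peaks behind these 5 had 12 to 27 reads, and at *SC35* and *pit* the start closest to the summit was that of another gene in both mock libraries. The mock libraries also had the higher background, and the part of depth in these hosts was not tested.

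The strength of shared sites was compared by rank, which does not depend on the scale of a list. Peaks of the 4 lists were merged into regions, the 1022 regions found in all 4 were put in order of −log10 q separately for each library, and the ranks were turned into normal scores, on which 1 unit is 1 SD of the regions in a list. In limma, 0 of 1022 regions (0%) differed between siAGO2 and mock at an adjusted p under 0.05, and 66 had an unadjusted p under 0.05. Of 18 regions at host starts or snoRNA genes, 11 were higher and 7 lower after siAGO2, with a median difference of 0.30 beside −0.01 over all regions. The lowest unadjusted p was that of a region at *skd* (3L, 21026174 to 21026700), which scored 0.06 and −0.10 in mock and 0.87 and 0.91 after siAGO2. The difference was 0.91 ± 0.35 (SE, n = 2 and 2), with a Benjamini-Hochberg adjusted p of 0.70 from limma. A second *skd* region lay in the other direction at −0.57 ± 0.62.

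Next in that order were the region at *Stt3A*, with a difference of 0.71 ± 0.35, and one at *Msp300*, with 0.72 ± 0.36, and both had an adjusted p of 0.83 in limma. The *Stt3A* region counts as one at a host start through mock replicate 2 only, with a summit 840 bp downstream. The other libraries had no peak there within 500 bp of the start. Both regions lay among the weaker ones, with mean scores of −0.88 and −1.56. *lola* held place 18 of 1022 by mean score (2.04) and differed by −0.08 ± 0.35, while *RpL3* held place 1017. The median score of the 18 regions was −0.45, beside −0.11 over all 1022.

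**Figure D5:**
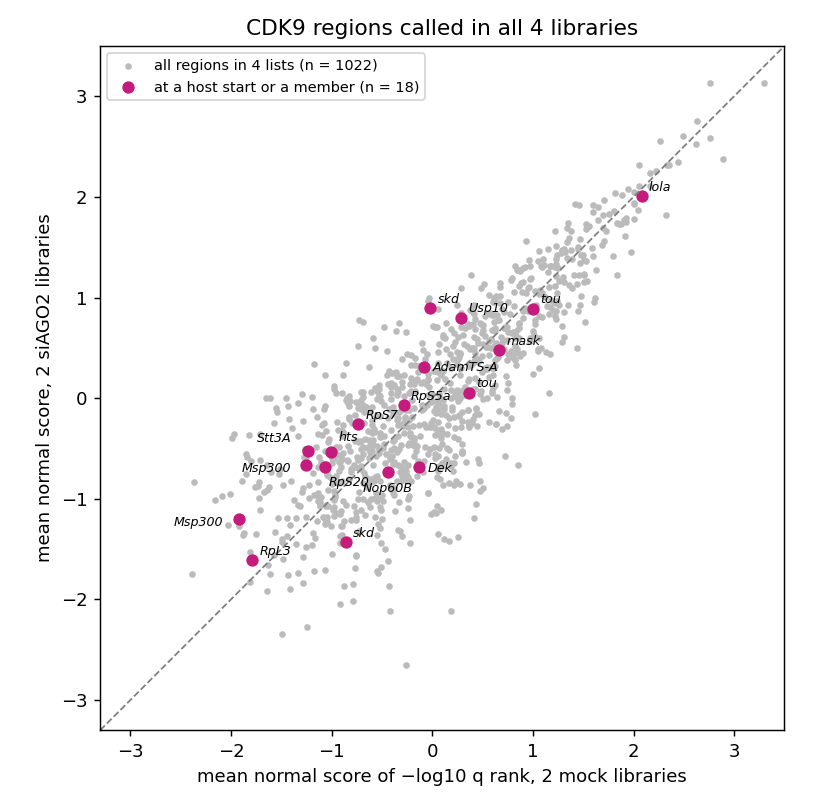
Mean normal score of the −log10 q rank in the 2 mock libraries (horizontal axis) and the 2 siAGO2 libraries (vertical axis) for the 1022 CDK9 regions found in all 4 lists, with the 18 regions at host starts or snoRNA genes in colour and the line of equal scores dashed. *lola* lies near the top and *RpL3* near the bottom on both axes, and *skd* at 0.89 in siAGO2 against −0.02 in mock is the farthest of the 18 above the line.

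Of 14 genes for snoRNP proteins and their assembly factors, 4, 3, 2 and 4 had a start peak in the same order of libraries. These were 28.6%, 21.4%, 14.3% and 28.6%, beside 11.3%, 16.8%, 7.77% and 10.3% of all genes. In all 4 libraries 2 had one (14.3%, against 5.03% of all genes). The list is short, and the difference from all genes was not tested. *Nop60B*, the dyskerin gene of box H/ACA particles, is also a host of 7 snoRNA genes, and its peaks of 4.52-fold and 9.32-fold in mock and 5.86-fold and 5.13-fold in siAGO2 lay closest to the start of *mRpS17*, at −378 to −491 bp from its own. *hoip*, which encodes the kink-turn binding protein of box C/D particles, reached 10.8-fold and 9.53-fold in mock and 9.48-fold and 5.62-fold after siAGO2, but closest to the start of *Pka-C1*. Among genes whose own start was closest, *rept*, an AAA+ ATPase gene of snoRNP assembly, had a peak in mock replicate 1 and siAGO2 replicate 2, *Gar1* in mock replicate 1 and *nop5*, itself a host, in mock replicate 2. *coil*, the gene of the Cajal body protein coilin, had one in siAGO2 replicate 2 closest to *Socs44A*. *Fib*, *Nop56*, *NHP2*, *Nop10*, *pont*, *Nufip*, *Nopp140* and *WDR79* had none.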

How the data were processed

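CDK9 ChIP-seq lists of 2 mock and 2 siAGO2 libraries were used, and the 4 inputs enter only through the authors' peak calls. Per the labels and methods, the authors trimmed 50 bp reads with cutadapt, aligned them to dm6 with Bowtie2, kept mapping quality of at least 20, removed duplicates with Picard and called each replicate with MACS2 2.1.1.20160309. The CDK9 settings were not given in the sources used here. Removal of ambiguous reads lowers coverage of repeats, and calling each replicate alone ties a list to the depth of its library and input.

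The deposited fold enrichment is a ratio of summit reads to local background. The deposited −log10 p and −log10 q are the authors' significance values. The deposited score is 10 times −log10 q and was not used for tests. The last deposited column is the summit offset.

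Reads at a summit were recovered as the whole number that gives the deposited fold, with 1 added on each side, and a Poisson p within 0.0005 on the −log10 scale, which solved 100% of peaks. Genes and 24111 starts came from Ensembl release 115 on 7 chromosomes, and sequences from RefSeq. Counts over libraries were compared by exact permutation tests and ranks by limma 3.58.1 (R 4.3.3) with Benjamini-Hochberg adjustment, without a replicate block. The scripts ran under Python 3.11.15 and were tested on simulated data.

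Named were all hosts that are not protein coding, hosts of 4 or more snoRNA genes, the 10 strongest hosts called in all libraries, hosts and genes called in both libraries of only 1 group, scaRNA genes, the 3 regions of lowest unadjusted p and a list of snoRNP genes. Other hosts with a peak in all 4 libraries were named for completeness after their values were seen. One host is not reported by name here. Members and lists were chosen with earlier results of these data known. Alternatives were other windows, summits only, stricter or equal lists, the shortest host, each library left out, ranks of fold and a replicate block.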

Additional observations from a re-analysis of the deposited data

How the results depend on the processing

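Host starts with a peak in all libraries fell from 14 to 8 when peaks under the median −log10 q of each list were dropped, and snoRNA or scaRNA genes from 47 to 31. The other planned settings gave 11 to 20 hosts and 36 to 62 genes, and leaving out 1 library gave 14 to 19 hosts and 47 to 73 genes, the highest without siAGO2 replicate 1 and mock replicate 1, respectively. The siAGO2 to mock ratio of host counts was below 1 under each setting, from 0.521 with peaks above the median to 0.956 with lists of equal length, and from 0.543 to 0.962 with 1 library left out. The ratio by snoRNA gene ran from 0.53 to 0.96, and from 0.638 to 1.096 with 1 library left out, where the reversal came without mock replicate 2. In the rule added after seeing the data, by which the host start had to be the closest to the summit of its highest peak, the ratios were 0.768 and 0.814. In limma 0 regions were called under the other settings, each left-out library included, which cannot show stability with 2 libraries a group. The replicate numbers are not known to pair the samples (r of −0.04 over hosts and 0.00 over regions between same-numbered deviations). With a replicate block, limma called 2 regions, neither at a host, and the ratios were 0.714 by host and 0.833 by gene. Sites under 5 to 10 summit reads could not be called, and this differs by library.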
